A study of Mus musculus with 16 samples.

Results

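The genes described here are 33 markers of astrocytes, the star-shaped glial cells of the brain, followed by RNA-seq in CA1, a subfield of the mouse hippocampus. They were picked by symbol: 29 are read as genes of resting astrocytes, and 4, Gfap, Vim, Serpina3n and C4b, as genes that mark reactive astrocytes. All 33 were found among the 46403 gene symbols of the series, and all 33 passed the filter on low counts, which left 11515 genes to test. The study compared 8 Fmr1-KO mice, in which the gene of the fragile X protein FMRP is knocked out, with 8 WT mice, whose genotype is given as C57BL/6. Every animal of both groups had served as a yoked control in active place avoidance, a task of spatial learning, so both groups carry that handling. The knockout allele, the age of the mice and whether the groups were littermates are not stated in the labels. Each library was read as 1 animal, so the p-values measure the spread between these labelled animals.

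Astrocytes take up glutamate released at synapses, turn it into glutamine, buffer potassium, and surround vessels with endfeet that carry the water channel Aqp4. They also supply neurons with lactate, carry cholesterol on ApoE particles, and secrete proteins that act on synapses. After injury or inflammation they become reactive, a state in which the intermediate filaments Gfap and Vim, the protease inhibitor Serpina3n and the complement gene C4b are known to rise.

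The Fmr1-KO libraries held 1480966 to 2979481 total estimated counts, and 6 of the 8 WT libraries held 2126632 to 3275003. WT replicate 3 held 878484 and WT replicate 6 held 515103. In these 2 libraries 10.35% and 31.59% of all counts fell on the 10 most abundant genes, where the other 14 libraries had 3.73% to 6.06%, and 80.67% and 58.38% fell on protein-coding genes, where the others had 87.59% to 91.8%. Both shallow libraries are WT, so the genotype comparisons are given with all 16 libraries and with the 14 deeper ones. Fmr1 itself lay at 8.44 to 32.0 CPM, a count per library size after TMM scaling, in Fmr1-KO and at 39.6 to 99.7 CPM in WT. The log2 fold change of this gene was −1.41 (edgeR quasi-likelihood test, Benjamini-Hochberg adjusted p = 0.0112), and no Fmr1-KO library reached the lowest WT library.

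No astrocyte gene differed between the genotypes past the threshold, in a series where few genes did. With 16 libraries 0 of the 33 members had an adjusted p under 0.05, beside 2 of 11515 genes in all (0.0174%). The smallest adjusted p among the members was 0.506, for Serpina3n. Most members were nonetheless a little lower in Fmr1-KO: 30 of 33 had a log2 fold change under 0, beside 51.9% of all genes tested, and their median was −0.26, beside −0.01 for all genes. At an unadjusted p under 0.05, 9 members were lower in Fmr1-KO, beside 4.28% of all genes, and 0 were higher, beside 3.61%. With the 14 deeper libraries 27 of 33 were lower, beside 50.3% of all genes, the median was −0.12, 0 passed, beside 0.0169%, and 6 members were lower and 1 higher at an unadjusted p under 0.05, beside 3.33% and 3.99% of all genes. Without WT replicate 3 alone, 0 members passed, beside 0.0171% of all genes, and 26 were lower, beside 51.4%, with a median of −0.11. At an unadjusted p under 0.05, 2 members were then lower and 1 higher, beside 3.56% and 3.8% of all genes. In tissue of mixed cells, fewer astrocytes and less RNA per astrocyte cannot be told apart.

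**Figure D1:**
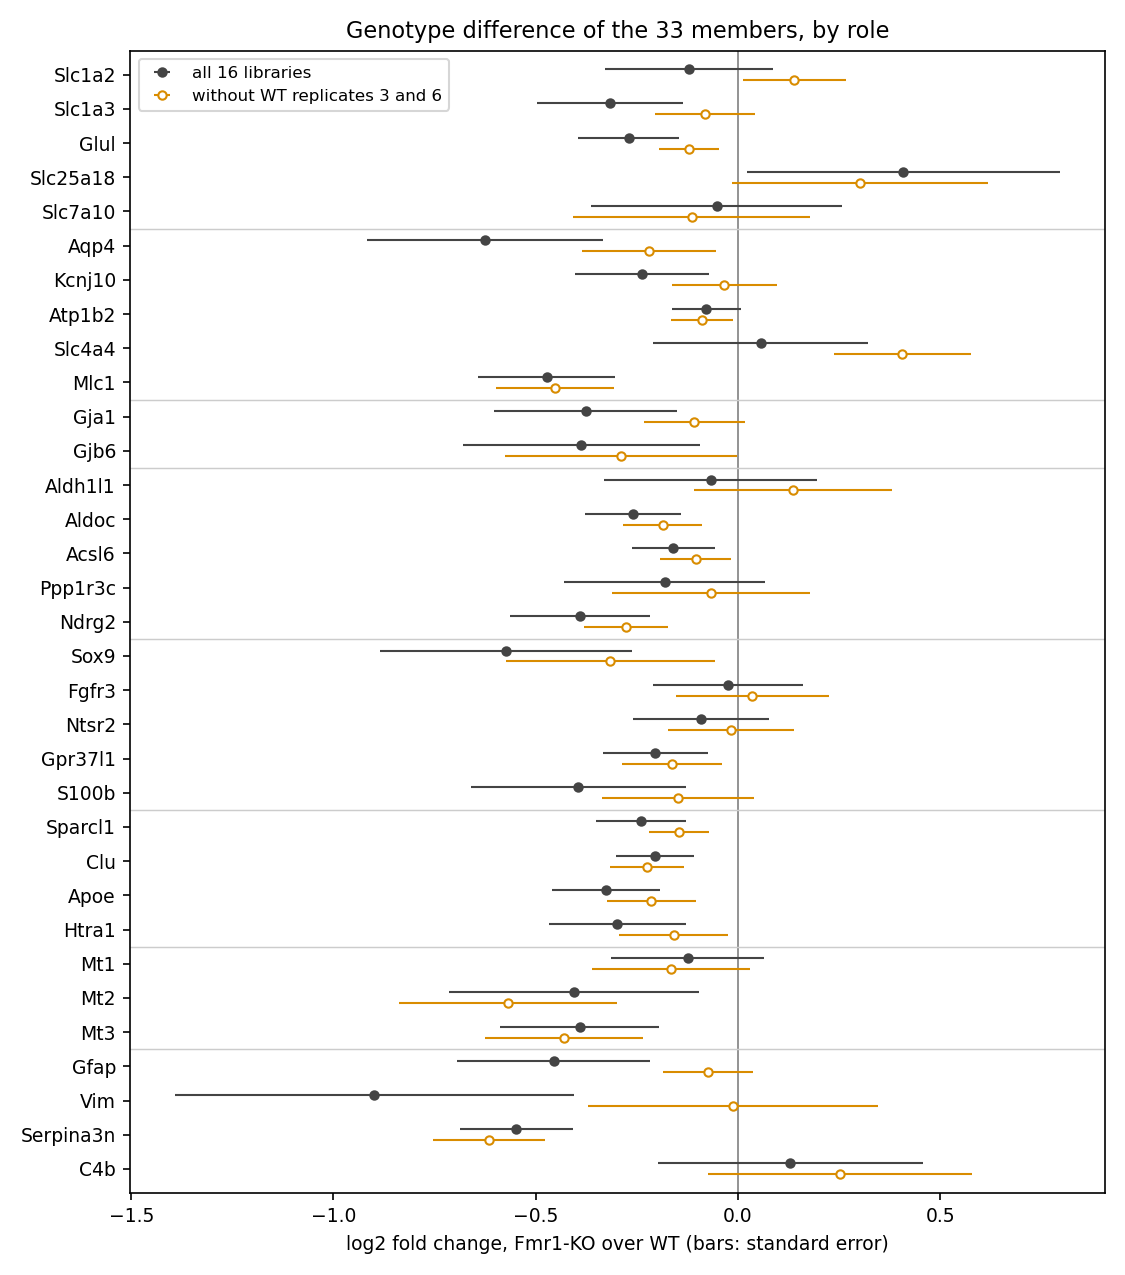
Log2 fold change of each of the 33 members, Fmr1-KO over WT (x axis), with its standard error, grouped by role (y axis). Filled points use all 16 libraries and open points leave out WT replicates 3 and 6: Vim sits at −0.90 with all libraries and at −0.01 with the 14, while Serpina3n, Mlc1 and Mt2 lie below −0.4 in both.

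On the scale that corrects for transcript length, TPM, the members spanned a wide range. Apoe, the main lipid carrier of the brain, was the most abundant member at 816 ± 86.2 TPM in Fmr1-KO and 794 ± 400 TPM in WT (SD, n = 8 each). Mt3, the metallothionein of the brain, followed at 587 ± 207 TPM in Fmr1-KO and 657 ± 432 TPM in WT. Glul, glutamine synthetase, lay at 435 ± 70.8 TPM in Fmr1-KO and 372 ± 156 TPM in WT. Near the other end stood the reactive gene C4b, at 5.98 ± 2.63 TPM in Fmr1-KO and 7.75 ± 7.76 TPM in WT, and the resting gene Sox9, a transcription factor of the astrocyte lineage, at 7.80 ± 2.71 TPM in Fmr1-KO and 8.83 ± 5.09 TPM in WT. Over all 8 WT libraries the lowest mean was that of Slc25a18, which lay at 11.3 ± 6.03 TPM in Fmr1-KO and 6.62 ± 4.34 TPM in WT. In the 6 deeper WT libraries C4b was the lowest, at 6.47 TPM, with Slc25a18 at 8.60 TPM. Among the reactive members Gfap was the most abundant per length, with 91.9 ± 10.6 TPM in Fmr1-KO and 88.1 ± 45.3 TPM in WT, followed by Serpina3n with 40.5 ± 6.90 TPM in Fmr1-KO and 48.1 ± 25.5 TPM in WT. TPM is relative within a library, and its spread was wide in WT: Gfap was listed at 9.75 TPM in WT replicate 6 and at 49.3 TPM in WT replicate 5, although its CPM in these libraries was 120.4 and 122. Nearly all members were low in TPM in WT replicate 6, with Apoe at 105, Mt3 at 56.3 and Glul at 43.0 TPM. This lowers the WT means over 8 libraries. The 6 deeper WT libraries averaged 935 ± 317 TPM for Apoe, 809 ± 375 TPM for Mt3 and 430 ± 90.9 TPM for Glul. Genotypes were therefore compared on estimated counts and CPM.

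Of the 4 reactive genes, Serpina3n was lower in Fmr1-KO with and without the shallow libraries, and Gfap and Vim were near 0 once WT replicate 3 was left out, though none passed the threshold. Serpina3n, an inhibitor of serine proteases that astrocytes secrete when reactive, lies at chr12:104406729-104414329 on the plus strand (GRCm38). Its CPM ran from a lowest value of 25.2 through a median of 44.1 to a highest of 50.8 in Fmr1-KO, and over 46.8, 64.1 and 73.4 CPM in WT. The groups overlapped only through WT replicate 3, the lowest WT library at 46.8 CPM, since 3 Fmr1-KO libraries (replicates 2, 4 and 8) held 50.6, 50.8 and 47.2 CPM. Serpina3n averaged 43.1 ± 8.09 CPM in Fmr1-KO, against 62.1 ± 8.84 CPM in WT (n = 8 each, SD), which is a log2 fold change of −0.55 ± 0.14 (SE; edgeR quasi-likelihood test, Benjamini-Hochberg adjusted p = 0.506). Its unadjusted p was 0.000703.

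With the 14 deeper libraries the log2 fold change of Serpina3n was −0.62 ± 0.14 (SE), with an unadjusted p of 0.000166 and an edgeR adjusted p of 0.281. The 6 deeper WT libraries spanned 57.5 to 73.4 CPM, all above the highest Fmr1-KO library, and Serpina3n was the 1 member of 33 whose groups did not overlap in these 14 libraries, beside 0.139% of all genes. With 16 libraries no member had separate groups, beside 0.0434% of all genes. The separation also depended on the unit: in TPM, WT replicate 5 held 35.5, below 7 of the 8 Fmr1-KO libraries. That library was low in TPM for most members, Gfap at 49.3 TPM and Apoe at 424 TPM among them, so the low value is not particular to Serpina3n. These 14 libraries held 75 to 230 estimated counts of Serpina3n, and the shallow WT replicates 3 and 6 held 39 and 18. Serpina3n sits in a cluster of closely related Serpina3 genes, and how the authors' quantification divided shared reads among them is uncertain. Fmr1-KO replicate 7 held the lowest value, 25.2 CPM, and without it the log2 fold change was −0.46.

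Gfap, the intermediate filament protein of astrocytes, lies at chr11:102887336-102900912 on the minus strand (GRCm38). It had a lowest value of 106.4, a median of 128 and a highest value of 136 CPM in Fmr1-KO, and 85.8, 137 and 475 CPM in WT. The highest WT value belongs to WT replicate 3, and every other library of either genotype lay between 85.8 and 150.3 CPM. Gfap averaged 124 ± 10.9 CPM in Fmr1-KO, against 172 ± 124 CPM in WT, where the 6 deeper WT libraries averaged 130.1 ± 24.3 CPM. The log2 fold change was −0.46 ± 0.24 with 16 libraries (edgeR adjusted p = 0.657), −0.07 with the 14 deeper libraries (adjusted p = 0.902) and −0.06 without WT replicate 3 alone (adjusted p = 0.913).

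Vim, the vimentin filament gene that astrocytes share with endothelium and microglia, was near the bottom of the range that could be measured, with 18.1 estimated counts per Fmr1-KO library on average. It ran over 2.13, 6.46 and 15.9 CPM (lowest, median, highest) in Fmr1-KO and over 5.98, 7.83 and 61.2 CPM in WT. WT replicate 3 again held the highest value, from 51 estimated counts, and the ranges of the other libraries overlapped throughout. This came to a log2 fold change of −0.90 ± 0.49 with 16 libraries (edgeR adjusted p = 0.670), −0.01 with the 14 deeper ones (adjusted p = 0.997) and −0.11 without WT replicate 3 alone. C4b, a component of the classical complement pathway, had 12.8 ± 4.96 CPM in Fmr1-KO, against 11.9 ± 6.52 CPM in WT, for a log2 fold change of 0.13 ± 0.33 (edgeR adjusted p = 0.946). Its highest libraries were Fmr1-KO replicate 2 at 23.6 CPM and WT replicate 4 at 23.9 CPM, and C4b has a near-identical neighbour, C4a, so the division of reads between them is uncertain. C4b was the only reactive member with a positive log2 fold change, and without Fmr1-KO replicate 2 that value was −0.04.

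**Figure D2:**
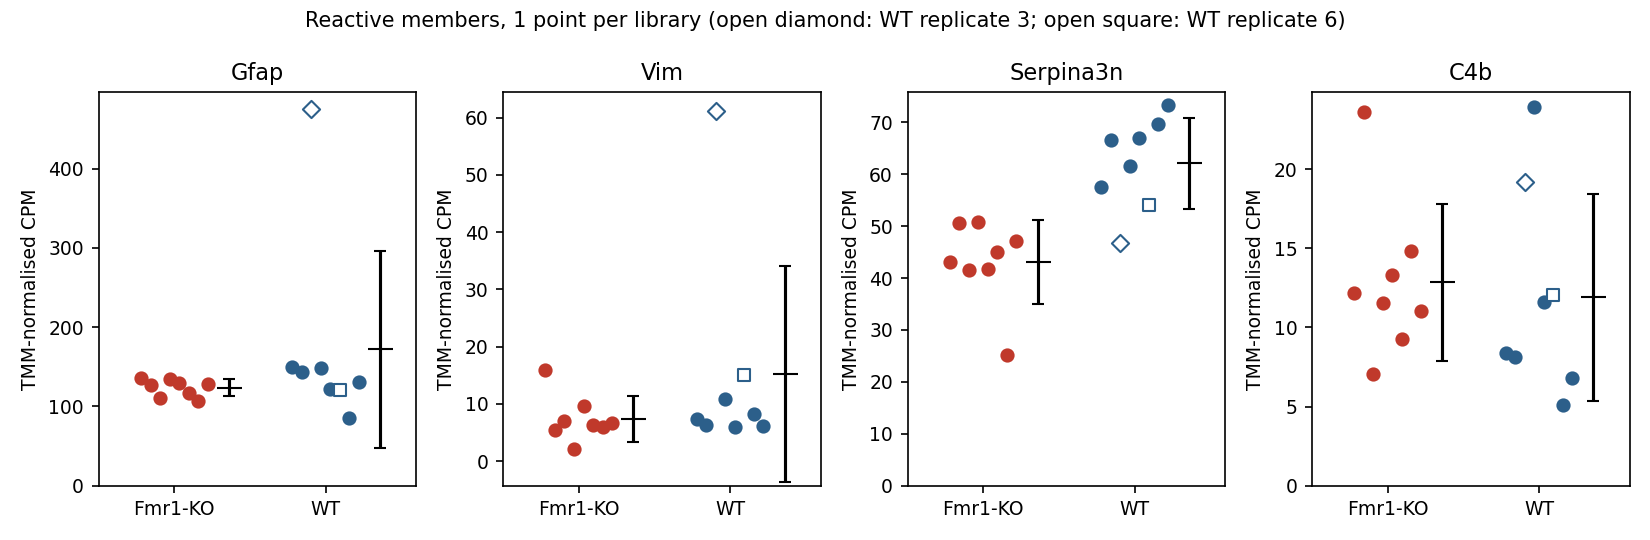
TMM-normalised CPM (y axis) of the 4 reactive members in each Fmr1-KO and WT library, with the group mean and SD as a black cross bar. WT replicate 3 (open diamond) stands alone at 475 CPM for Gfap and 61.2 CPM for Vim but is the lowest WT library for Serpina3n at 46.8 CPM; WT replicate 6 is the open square.

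Summed within each library, neither class of members separated the genotypes. Such sums lean on the most abundant genes of each class, Slc1a2 and Gfap. Slc1a2 averaged 1428 CPM in Fmr1-KO and 1298 CPM in the 6 deeper WT libraries, and Gfap averaged 124 and 130 CPM. The 29 resting genes summed to 4234 to 5401 CPM in Fmr1-KO (4874 ± 440, SD, n = 8) and to 4330 to 10142 CPM in WT (5659 ± 1854, SD, n = 8). WT replicate 3 held the 10142 CPM, and the 6 deeper WT libraries lay between 4819 and 5638 CPM, within or just above the Fmr1-KO range. The 4 reactive genes summed to 152 to 208 CPM in Fmr1-KO (187 ± 19.8) and to 169 to 603 CPM in WT (261 ± 140), with 214 ± 25.6 CPM in the 6 deeper WT libraries. The reactive sum was 3.86 ± 0.445% of the resting sum in Fmr1-KO and 4.45 ± 0.715% in WT, or 4.17 ± 0.409% in the 6 deeper WT libraries. The Fmr1-KO percentages, 3.21 to 4.36, lay largely inside the 3.48 to 4.65 of those 6 libraries. Within the reactive class, Serpina3n equalled 23.7% to 39.7% of the Gfap CPM in Fmr1-KO, and 38.2% to 81.2% in the 6 deeper WT libraries, of which replicate 1, at 38.2%, lay inside the Fmr1-KO range. WT replicate 3 stood apart at 9.85%.

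**Figure D3:**
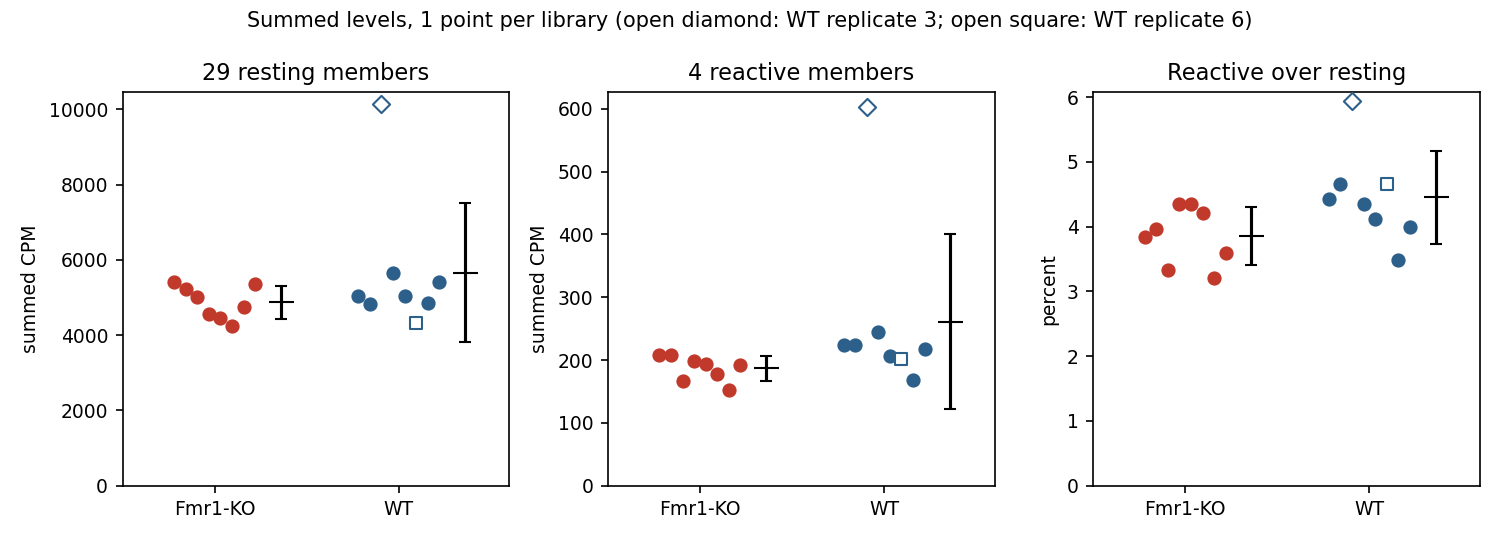
Summed TMM-normalised CPM of the 29 resting and the 4 reactive members, and the reactive sum as a percent of the resting sum (y axes), in each Fmr1-KO and WT library with the group mean and SD. Apart from WT replicate 3 (open diamond) at 10142 CPM, 603 CPM and 5.94%, the ranges of the genotypes overlap in each panel.

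The genes of glutamate uptake and glutamine synthesis showed little difference by genotype. Slc1a2 (GLT-1), the main glutamate transporter of the forebrain, had a lowest value of 909, a median of 1552 and a highest of 1783 CPM in Fmr1-KO, and 1062, 1246 and 3516 CPM in WT, so that the Fmr1-KO median was above the WT one. Its log2 fold change was −0.12 ± 0.21 with 16 libraries (edgeR adjusted p = 0.916) and 0.14 with the 14 deeper ones. Slc1a3 (GLAST), the other astrocyte glutamate transporter, had −0.32 with 16 libraries and −0.08 with 14, and Glul had −0.27 and −0.12. Slc25a18, a mitochondrial glutamate carrier, was the member with the largest positive value, 0.41 with 16 libraries and 0.30 with 14. It was counted thinly, at 27.6 estimated counts per Fmr1-KO library on average, and was listed at 0 in WT replicate 3. Slc7a10, a transporter of small neutral amino acids, had −0.05 and −0.11. The median of these 5 genes was −0.12 with 16 libraries and −0.08 with 14.

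Among the genes of water, ion and membrane handling, Mlc1 was about as far below WT without the shallow libraries as with them, and Aqp4 was closer to 0. Mlc1, a membrane protein of astrocyte endfeet whose loss causes a leukoencephalopathy with cysts in humans, had a lowest value of 31.2, a median of 44.3 and a highest of 49.4 CPM in Fmr1-KO, and 27.1, 54.6 and 85.2 CPM in WT. All 8 Fmr1-KO libraries lay below the WT median, as they did for 5 of the 33 members (Mlc1, Ndrg2, Sparcl1, Gfap and Serpina3n), beside 2.59% of all genes. The lowest WT library for Mlc1 was the shallow replicate 6, and the 6 deeper WT libraries spanned 46.0 to 74.5 CPM, overlapping the Fmr1-KO range at its upper end. The log2 fold change of this gene was −0.47 ± 0.17 with 16 libraries (edgeR adjusted p = 0.572) and −0.45 ± 0.15 with 14 (adjusted p = 0.600).

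Aqp4, the endfoot water channel, had 31.2 ± 7.88 CPM in Fmr1-KO, against 49.4 ± 42.0 CPM in WT, with 152 CPM in WT replicate 3 and 36.5 ± 3.27 CPM in the 6 deeper WT libraries. This came to a log2 fold change of −0.62 with 16 libraries (edgeR adjusted p = 0.628) and −0.22 with 14. Slc4a4, the sodium bicarbonate cotransporter, had 0.06 with 16 libraries and 0.41 ± 0.17 with 14 (edgeR adjusted p = 0.644), and it was the 1 member higher in Fmr1-KO at an unadjusted p under 0.05 in the 14 libraries. It averaged 86.9 ± 25.1 CPM in Fmr1-KO, 85.0 ± 61.6 CPM in WT and 65.3 ± 14.5 CPM in the 6 deeper WT libraries. Kcnj10 (Kir4.1), the potassium channel of astrocytes, had −0.24 with 16 libraries and −0.03 with 14, and Atp1b2, a beta subunit of the sodium pump, had −0.08 and −0.09. Gja1 and Gjb6, the connexins that form astrocyte gap junctions, had −0.38 and −0.39 with 16 libraries and −0.11 and −0.29 with 14.

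The metabolic members and the genes of astrocyte identity leaned low in Fmr1-KO by small amounts. Ndrg2, a cytoplasmic marker of astrocytes, had 197 ± 31.6 CPM in Fmr1-KO, against 257 ± 107 CPM in WT, with 239 ± 26.2 CPM in the 6 deeper WT libraries. Its log2 fold change was −0.39 ± 0.17 with 16 libraries (edgeR adjusted p = 0.622), −0.28 with 14 and −0.20 without WT replicate 3 alone. Aldoc, the aldolase of astrocytes, had −0.26 with 16 libraries and −0.19 with 14. Acsl6, a long-chain acyl-CoA synthetase, had −0.16 and −0.10, Ppp1r3c, a subunit that targets a phosphatase to glycogen, had −0.18 and −0.07, and Aldh1l1, a folate enzyme used as a marker of all astrocytes, had −0.07 and 0.14. Sox9 had 17.9 ± 7.11 CPM in Fmr1-KO, against 27.0 ± 17.8 CPM in WT, with 67.2 CPM in WT replicate 3, and a log2 fold change of −0.57 with 16 libraries (edgeR adjusted p = 0.667) and −0.32 with 14. S100b, a calcium-binding protein, had −0.39 and −0.15. Among the receptors, Gpr37l1, an astrocyte G-protein-coupled receptor, had −0.20 and −0.16, Ntsr2, a neurotensin receptor, −0.09 and −0.02, and Fgfr3, a fibroblast growth factor receptor, −0.02 and 0.04.

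All 4 secreted proteins had a log2 fold change slightly under 0 with both sets of libraries. Apoe had a lowest value of 276, a median of 365 and a highest of 419 CPM in Fmr1-KO, and 319.6, 408 and 679.6 CPM in WT. The ranges overlapped over most of their length, with WT replicate 3 at the top. The log2 fold change of this gene was −0.33 ± 0.13 with 16 libraries (edgeR adjusted p = 0.597) and −0.21 with 14. Sparcl1 (hevin), a secreted protein that promotes synapse formation, averaged 416 ± 29.6 CPM in Fmr1-KO, against 491 ± 121 CPM in WT, with −0.24 with 16 libraries and −0.15 with 14. Clu (clusterin), a lipoprotein-associated chaperone, averaged 257 ± 26.9 CPM in Fmr1-KO, against 295 ± 45.4 CPM in WT, with −0.21 with 16 libraries and −0.22 with 14. Htra1, a secreted serine protease, had −0.30 and −0.16. Apoe, Sparcl1 and Clu had an unadjusted p under 0.05 with 16 libraries, and Clu alone with 14 (edgeR adjusted p = 0.644).

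The metallothioneins are small cysteine-rich proteins that bind zinc and copper, and Mt1 and Mt2 are known to be induced by metals through the factor MTF1, which binds metal response elements in their promoters. The 3 genes lie next to each other on chromosome 8 (GRCm38), Mt3 at 94152607 to 94154146, Mt2 at 94172664 to 94173568 and Mt1 at 94179082 to 94180327, all on the plus strand. The 250 bases before the RefSeq start of each gene are shown (GRCm38.p6, plus strand, 5′ to 3′), with the core of that element marked in these windows only. Capitals mark each match to TGCNCNC on either strand, with no overlap between matches. The windows are chr8:94178839-94179088 for Mt1, chr8:94172368-94172617 for Mt2 and chr8:94152357-94152606 for Mt3.
Mt1: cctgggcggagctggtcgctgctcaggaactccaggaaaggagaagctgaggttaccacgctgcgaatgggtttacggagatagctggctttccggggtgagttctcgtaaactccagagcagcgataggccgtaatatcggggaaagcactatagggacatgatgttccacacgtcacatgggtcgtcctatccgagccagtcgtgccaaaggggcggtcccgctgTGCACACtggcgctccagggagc
Mt2: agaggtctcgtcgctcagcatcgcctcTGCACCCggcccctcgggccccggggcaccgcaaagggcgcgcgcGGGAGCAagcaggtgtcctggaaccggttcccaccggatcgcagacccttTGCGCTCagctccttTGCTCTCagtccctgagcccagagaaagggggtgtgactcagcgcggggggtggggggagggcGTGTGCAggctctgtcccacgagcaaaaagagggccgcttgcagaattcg
Mt3: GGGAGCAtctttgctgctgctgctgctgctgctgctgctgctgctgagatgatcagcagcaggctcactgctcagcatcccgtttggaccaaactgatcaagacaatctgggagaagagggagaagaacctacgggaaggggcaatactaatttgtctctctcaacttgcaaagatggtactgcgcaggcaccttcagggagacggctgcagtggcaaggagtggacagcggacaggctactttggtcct
The Mt2 window held 5 matches, the Mt1 window 1, 23 bases before the RefSeq start, and the Mt3 window 1, at its far end 250 bases before that start. Of all 32851 promoter windows of this length in the table, 44.4% held at least 1 match and 0.34% held 5 or more. A match only describes the letters in the window. Bases on either side, those past the RefSeq start included, were not searched, so the counts are not totals for these genes. In all, 27 of the 33 members had a promoter in that table.

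The metallothionein genes varied from animal to animal more than they differed between the genotypes. Mt3, the most abundant, had a lowest value of 71.0, a median of 91.4 and a highest of 174 CPM in Fmr1-KO, and 90.3, 129 and 209 CPM in WT. This came to a log2 fold change of −0.39 ± 0.20 with 16 libraries (edgeR adjusted p = 0.645) and −0.43 with 14 (adjusted p = 0.654). Mt2 had a lowest value of 5.63, a median of 20.4 and a highest of 26.2 CPM in Fmr1-KO, and 6.00, 21.6 and 40.8 CPM in WT, where the lowest value was that of WT replicate 3. Its log2 fold change was −0.41 ± 0.31 with 16 libraries (edgeR adjusted p = 0.770) and −0.57 ± 0.27 with 14 (adjusted p = 0.674). Mt1 averaged 43.0 ± 13.5 CPM in Fmr1-KO, against 46.1 ± 9.73 CPM in WT, with a log2 fold change of −0.12 with 16 libraries and −0.17 with 14.

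Some animals were high or low for several metallothioneins and others were not, and how the 3 genes vary together was not tested. Fmr1-KO replicate 5 had the highest Fmr1-KO value of each gene, at 57.8 CPM for Mt1, 26.2 for Mt2 and 174 for Mt3. Fmr1-KO replicates 6 and 7 had the lowest 2 Mt1 values (26.4 and 25.2 CPM) and the lowest 2 Mt3 values (72.8 and 71.0 CPM) of that genotype, but its lowest Mt2 value, 5.63 CPM, was that of replicate 1, which had 54.4 CPM for Mt1. Among WT animals replicates 1 and 8 were the highest for Mt1 (56.1 and 61.8 CPM) and Mt3 (186 and 209 CPM), while replicate 5 had the lowest WT value for Mt1 (33.3 CPM) and 31.4 CPM for Mt2, below only replicate 1 at 40.8 CPM. The sum of the 3 genes ran from 110.1 to 258 CPM in Fmr1-KO (167 ± 51.3, SD, n = 8) and from 147 to 301 CPM in WT (206 ± 59.0, SD, n = 8), and the ranges overlapped. WT replicate 3, which was high for most other members, had a metallothionein sum of 197 CPM, inside the range of both genotypes.

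**Figure D4:**
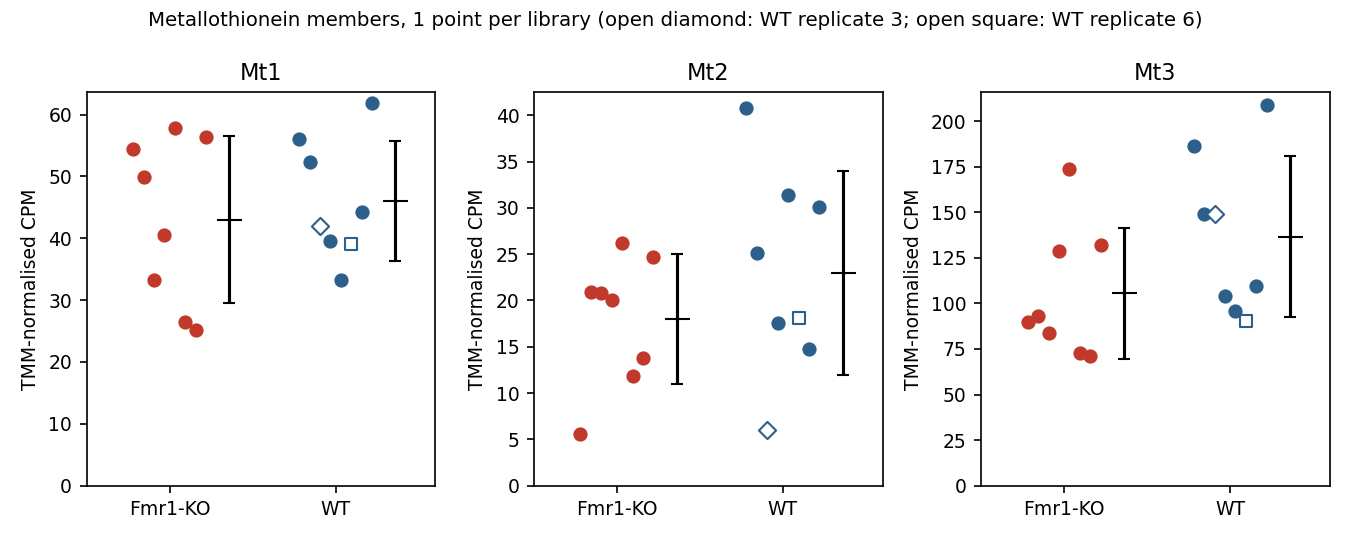
TMM-normalised CPM (y axis) of Mt1, Mt2 and Mt3 in each Fmr1-KO and WT library, with the group mean and SD as a black cross bar. The points of the 2 genotypes overlap in every panel, and the highest Mt3 value within each genotype is that of Fmr1-KO replicate 5 at 174 CPM and of WT replicate 8 at 209 CPM.

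WT replicate 3, the library whose omission moved Gfap, Vim and Aqp4, was high for most astrocyte genes. On a log2 scale with 1 CPM added, 12 of the 33 members were over 2-fold higher there than the median of the other 7 WT libraries, beside 11.8% of all genes, and 2 were over 2-fold lower, beside 22.6%. It held the highest value of all 16 libraries for 24 of the 33 members, beside 20.1% of all genes. In CPM, Vim was 8.33 times that median, Aqp4 4.22 times, Slc4a4 3.84 times, Gfap 3.64 times, Sox9 3.14 times, Slc1a2 3.12 times, S100b 3.11 times and Gja1 3.04 times. Other members were not high: Serpina3n stood at 0.704 times the median of the other WT libraries, Mt1 at 0.949 times and Mt2 at 0.238 times, and Slc25a18 was listed at 0. Among the well-counted genes, those with a median over 50 CPM (a limit set after the data were seen), 7 of 18 members were over 2-fold higher, beside 3.01% of 4026 genes. WT replicate 6, the shallower library, had 0 of the 33 members over 2-fold higher, beside 8.72% of all genes, and 2 over 2-fold lower, beside 9.56%.

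**Figure D5:**
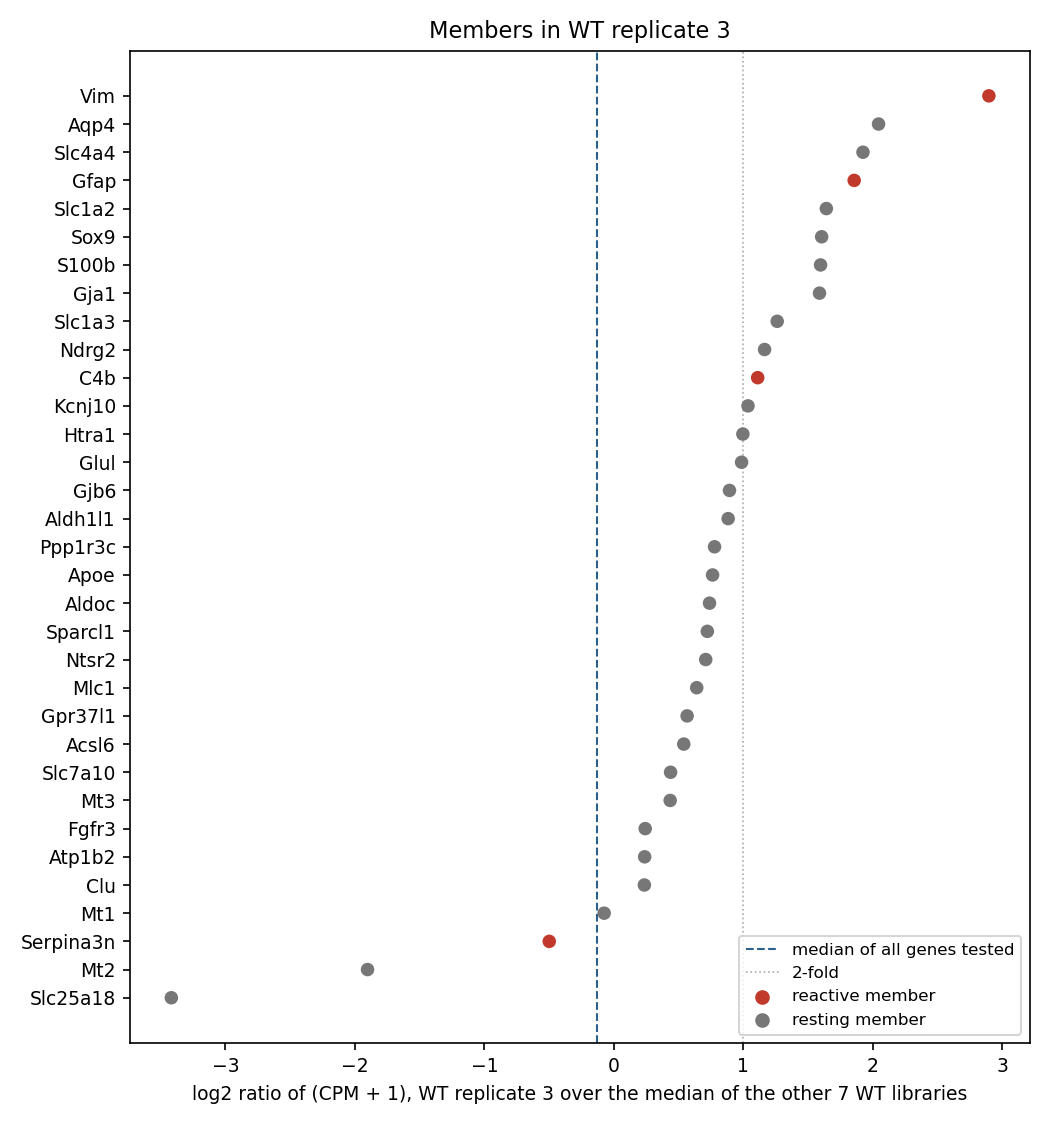
Log2 ratio of (CPM + 1) in WT replicate 3 over the median of the other 7 WT libraries (x axis) for each of the 33 members (y axis), with reactive members in red and resting members in grey. Of the members 12 lie right of the 2-fold line, while Serpina3n, Mt2 and Slc25a18 lie left of the dashed line that marks the median of all genes tested, −0.13.

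Markers of microglia, oligodendrocyte precursors and endothelium were also high in WT replicate 3, while those of oligodendrocytes were not. Endothelium and precursors also had a high sum in WT replicate 6, but their median marker there was close to the other WT libraries. The markers of endothelium summed to 381 CPM in WT replicate 3, against 90.8 to 149.5 CPM in the 6 deeper WT libraries. Of 10 tested, 8 were over 2-fold higher in WT replicate 3, and WT replicate 6 held a sum of 292 CPM. In WT replicate 3 the markers of microglia summed to 549.9 CPM, against 231 to 324 CPM, with 5 of 11 over 2-fold higher. Those of oligodendrocyte precursors summed to 262 CPM there, against 82.2 to 128 CPM, with 4 of 5 over 2-fold higher. In WT replicate 6 the microglial markers summed to 274 CPM and those of oligodendrocyte precursors to 214 CPM. The median log2 ratio of WT replicate 6 to the other WT libraries was 0.07 for 10 endothelial markers and 0.10 for 5 precursor markers. Markers of pericytes summed to 155 CPM in WT replicate 3 and 51.1 CPM in WT replicate 6, against 40.7 to 103 CPM. Of 4 tested, 1 was over 2-fold higher in WT replicate 3. Markers of oligodendrocytes summed to 593 CPM in WT replicate 3 and 445 CPM in WT replicate 6, inside the 266 to 724 CPM of the deeper WT libraries. The markers of pyramidal neurons summed to 11542 CPM in WT replicate 3 and 9132 CPM in WT replicate 6, against 9824 to 10559 CPM. In WT replicate 3, 0 of 10 pyramidal markers were over 2-fold higher. Among markers of tissue next to CA1, Folr1 and Tmem212 of choroid plexus and ependyma and Lum of the meninges were listed at 0 in all libraries. The choroid and ependymal list summed to 30.02 CPM in WT replicate 3 and 111 CPM in WT replicate 6. The 6 deeper WT libraries held 56.1 to 79.0 CPM. The meningeal list summed to 28.8 CPM in WT replicate 3 and 63.2 CPM in WT replicate 6, against 9.72 to 31.4 CPM. Only Igf2 (1 of 7) was tested there, at 22.8 CPM in WT replicate 3. Markers of the dentate gyrus and CA3 summed to 103 CPM in WT replicate 3 and to 274 CPM in WT replicate 6, against 41.1 to 72.2 CPM. The part of these cell types and of depth in the astrocyte values of either library was not tested.

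Between the genotypes, most of these other markers also had log2 fold changes under 0. Over 16 libraries the median log2 fold change was −0.37 for 9 tested markers of oligodendrocytes, −0.36 for 11 of microglia, −0.63 for 10 of endothelium, −0.46 for 5 of oligodendrocyte precursors and −0.04 for 10 of pyramidal neurons, with 0 past an adjusted p of 0.05 in each list. With the 14 deeper libraries these medians were −0.38, −0.22, −0.24, −0.03 and −0.02. The summed CPM of endothelial markers was 85.9 to 139 in Fmr1-KO and 90.8 to 149.5 in the 6 deeper WT libraries, and that of microglial markers was 178 to 311 in Fmr1-KO and 231 to 324 in those WT libraries. The summed CPM of oligodendrocyte markers was 239 to 477 in Fmr1-KO and 266 to 724 in those WT libraries. That of pyramidal markers was 9577 to 10734 in Fmr1-KO and 9824 to 10559 in those WT libraries. For pericytes (4 of 8 tested) the median log2 fold change was −0.49 with 16 libraries and −0.40 with 14, for interneurons (10 of 10) it was −0.23 and −0.07, and for the dentate gyrus and CA3 (4 of 10) −0.25 and −0.03. Their part in the astrocyte differences was not tested. Serpina3n, Vim, Apoe and C4b are also expressed by such cells.

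Genes of astrocytes and of their pathways outside the 33 were likewise not past the threshold. Of 48 other astrocyte genes 44 were tested, and 41 were lower and 3 higher in Fmr1-KO, beside 51.9% of all genes lower, with 0 past the threshold, beside 0.0174%, and a median of −0.26. With the 14 deeper libraries 45 were tested, 32 were lower and 13 higher, beside 50.3% of all genes lower, and the median was −0.14. The lowest p among them was that of Cspg5, a chondroitin sulfate proteoglycan, with 65.1 ± 6.51 CPM in Fmr1-KO, against 106.4 ± 46.3 CPM in WT, for a log2 fold change of −0.66 (edgeR adjusted p = 0.515) and −0.38 with the 14 deeper libraries. Cst3 (cystatin C) had −0.41 with 16 libraries and −0.37 with 14, and Cldn10, a claudin, had −0.74 and −0.65. Most further reactive genes were too scarce to test. Of 10 genes known to be induced in all forms of reactive astrocytes, only Cp and Hspb1 were tested with 16 libraries, and neither passed the threshold. Cp, a copper oxidase, had 3.61 ± 3.41 CPM in Fmr1-KO, against 9.93 ± 12.3 CPM in WT, with a log2 fold change of −1.15 with 16 libraries (edgeR adjusted p = 0.658) and −0.39 with 14. Hspb1, a small heat shock protein, had 3.09 ± 2.75 CPM in Fmr1-KO, against 3.44 ± 3.72 CPM in WT, with −0.34 and −0.56. Of 12 genes linked with the neuroinflammatory form 2 were tested, and of 12 linked with the ischaemic form 2 were tested, with 0 past the threshold. Fkbp5, a target of glucocorticoids in the first of these lists, had 50.2 ± 9.14 CPM in Fmr1-KO, against 39.9 ± 6.83 CPM in WT, for a log2 fold change of 0.32 (edgeR adjusted p = 0.624).

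Of 12 genes of the STAT3 axis, which drives Gfap in reactive astrocytes, 9 were tested with 0 past the threshold and a median of −0.19 with 16 libraries and −0.06 with 14. Stat3 itself had −0.68 with 16 libraries and −0.14 with 14, and lay at 168 CPM in WT replicate 3 against a WT mean of 49.9 ± 48.0 CPM. Other genes of the glutamate cycle (11 of 13 tested) had a median of 0.02 with 16 libraries and 0.01 with 14, and Slc17a7, the vesicular transporter VGLUT1, averaged 1693 ± 87.2 CPM in Fmr1-KO, against 1571 ± 75.8 CPM in WT. The dystrophin complex that anchors Aqp4 at endfeet (10 of 12 tested) had a median of −0.14 with 16 libraries and −0.01 with 14, with Utrn (utrophin) at −0.72 with 16 libraries and −0.55 with 14 (edgeR adjusted p with 16 libraries = 0.581). The genes of lipoprotein handling (11 of 12 tested) had a median of 0.05 with 16 libraries and 0.02 with 14, and with 16 libraries 5 were lower and 6 higher. Pltp, a phospholipid transfer protein, was at −0.73 in both (edgeR adjusted p with 16 libraries = 0.622). Lrp1, from the same list, was at 0.23 with 16 libraries and 0.22 with 14. The genes of metal response (12 of 13) had a median of 0.10 with 16 libraries and 0.06 with 14, those of lactate and glycogen (11 of 12) had −0.05 and −0.09, and in each of these lists 0 genes passed the threshold.

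At the level of single transcripts no member passed the threshold either. Of 147 transcripts of the members, 49 were tested with 16 libraries and 0 had an adjusted p under 0.05, beside 0.00596% of 16772 transcripts, and 4 were lower and 0 higher at an unadjusted p under 0.05, beside 2.06% and 1.85%. With 14 libraries 53 were tested, 0 passed, beside 0.0053%, and 7 were lower and 0 higher, beside 1.49% and 1.9%. Serpina3n was carried by Serpina3n-001 alone. Gfap-001 made up 90.4% of the Gfap CPM, with 116 ± 8.09 CPM in Fmr1-KO, against 163 ± 106 CPM in WT, and Gfap-201 made up 9.48%, with 14.4 ± 7.29 CPM in Fmr1-KO, against 14.8 ± 14.8 CPM in WT. Aldoc was split between Aldoc-002, with 164 ± 24.9 CPM in Fmr1-KO, against 207 ± 26.6 CPM in WT, and Aldoc-001, with 74.1 ± 25.3 CPM in Fmr1-KO, against 73.8 ± 37.9 CPM in WT. The log2 fold changes were −0.34 ± 0.11 for Aldoc-002 (edgeR adjusted p = 0.9999) and 0.00 ± 0.27 for Aldoc-001, and the difference between the 2 was not tested. Such splits rest on how the authors' quantification divided reads among overlapping transcripts of 1 gene.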

How the data were processed

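Per the labels' protocols, total RNA of CA1 was extracted with a Maxwell 16 LEV kit, and libraries were run on Illumina HiSeq. FastQC, cutadapt, kallisto and DESeq2 are named in the submitters' processing notes. Versions, build, index and strand setting were not given in the sources used here. The deposited tables, 1 per library with 111706 transcripts, hold estimated counts, which are reads assigned by a model and can be fractional, and TPM values, which the authors' quantification scaled by effective length within a library.

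For each symbol the estimated counts of its transcripts were added up (83 of 46403 symbols cover more than 1 gene identifier, and 0 of the members do) and rounded. The test per gene was the quasi-likelihood test of edgeR 4.0.16 in R 4.3.3, with TMM scaling, filterByExpr at a minimum count of 10, no covariate, Benjamini-Hochberg adjustment over all genes tested and a threshold of 0.05. Single transcripts were tested likewise. CPM values are TMM-normalised. A standard error is the fold change divided by the square root of the F statistic. The test was tried on simulated data first. Gene positions are those of GENCODE M21 (GRCm38), and promoter sequences from RefSeq (GRCm38.p6).

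The members, the other gene lists and the marker lists were chosen with earlier results of these data known, so counts over them are descriptions. All members may be named, and from every other list up to 4 genes with the smallest p. Not all lists' genes so selected are named. As alternatives, the fit was repeated with the Wald test of DESeq2 1.42.0, DESeq2-style size factors, library totals, 2 other filters, limma 3.58.1 with voom quality weights, log2(TPM + 1), the 14 deeper libraries alone, the animal's label letter (B or D) as covariate, an adjusted p of 0.1, and without each single library. Replicate numbers were given in accession order and do not pair animals.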

Additional observations from a re-analysis of the deposited data

Results flagged for a closer look

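In 18 of 66 groups (each member within each genotype) 1 library stood far from the other 7 by Dixon's criterion, where chance gives about 1 group in 20. Of these, 15 were WT replicate 3, all on the high side. In CPM, with the next highest WT library after it, it held 3516 for Slc1a2 (next 1594), 487.5 for Slc1a3 (next 281.9), 1130 for Glul (next 660.3), 152.5 for Aqp4 (next 40.4), 145.3 for Kcnj10 (next 93.3) and 234.1 for Slc4a4 (next 90.8). It held 226.9 CPM for Gja1 (next 87.8), 224.5 for Acsl6 (next 167.4), 497.1 for Ndrg2 (next 282.1), 67.24 for Sox9 (next 35.1) and 74.44 for S100b (next 30.7). It also held 774.4 CPM for Sparcl1 (next 514.8), 180.1 for Htra1 (next 106.5), 475.5 for Gfap (next 150.3) and 61.23 for Vim (next 15.04).

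The other 3 were Fmr1-KO libraries. Fmr1-KO replicate 3 held 84.57 CPM for Fgfr3, with the next highest at 52.1. Fmr1-KO replicate 7 was low for Serpina3n at 25.24 CPM, with the next lowest at 41.6. Fmr1-KO replicate 2 held 23.63 CPM for C4b, with the next highest at 14.8.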

How the results depend on the processing

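The count of members past the threshold was 0 under each alternative, and their smallest adjusted p lay between 0.0729 (limma-voom with quality weights, Serpina3n) and 0.769 (without Fmr1-KO replicate 3). DESeq2 gave most members no adjusted p, Gfap, Vim, C4b and Mlc1 among them, so its 0 covers only the others. Over all genes, 2 passed with 16 libraries, against 11 with the DESeq2 Wald test, 5 with no filter on low counts, 7 with limma-voom with quality weights and 0 with log2(TPM + 1), and 2 to 3 when 1 library was left out. The median of the reactive members, −0.50, was −0.043 with the 14 deeper libraries and ran from −0.54 (without WT replicate 7) to −0.084 (without WT replicate 3), that of the resting members from −0.29 to −0.11 and that of all members from −0.30 to −0.11. Of the member values under an alternative, 31 had the opposite sign to the value with 16 libraries and 794 did not. Slc1a2 was at 0.14 with the 14 libraries and 0.17 with voom, Aldh1l1 at 0.14 and 0.13, and Fgfr3 at 0.035 and 0.068, and at 0.014 with library totals. With log2(TPM + 1) all genes shifted by a median of 0.55, which was subtracted from the fold changes only. Atp1b2 was then at 0.0047, Gjb6 at 0.19 and C4b at −0.50. The p-values of that setting, and so its counts past the threshold, still include the shift. With 1 library left out, Slc7a10 ran from −0.21 to 0.10, Aldh1l1 from −0.15 to 0.090, Slc4a4 from −0.044 to 0.43, C4b from −0.039 to 0.40, Fgfr3 from −0.18 to 0.060, Slc1a2 from −0.18 to 0.17 and Ntsr2 from −0.18 to 0.012. The causes were not tested. Serpina3n was under −0.46 in each, and DESeq2 gave it no adjusted p. No paired analysis was possible because the labels give the genotypes no shared replicate numbers. Vim, C4b, Mt2, Slc25a18 and Slc7a10 rest on few reads per library, which limits what can be detected for them.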
